A study of Mus musculus with 15 samples.

Results

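Insulin-like growth factor (IGF) signalling was examined in bone marrow mesenchymal stromal cells (MSCs) with and without the taurine transporter TauT, through 10 genes chosen by symbol: the ligand *Igf1*, the receptors *Igf1r* and *Igf2r*, the binding proteins *Igfbp2*, *Igfbp3*, *Igfbp4*, *Igfbp5*, *Igfbp6* and *Igfbp7*, and the protease *Pappa*. All 10 were present among the 56832 genes counted, and all 10 passed the filter on low counts, which left 17204 genes for testing. The 15 bulk RNA-sequencing libraries were made from MSCs of 16 week old mice of C57BL/6J background, cultured in medium with 15% fetal bovine serum. They comprised 7 libraries of TauT+/+ controls (4 labelled male, 3 labelled female) and 8 libraries of TauT-/- mice (4 labelled male, 4 labelled female), in which *Slc6a6*, the gene for TauT, is disrupted in every cell of the animal. The MSCs were grown from bone marrow that adhered to the dish and were then enriched by magnetic depletion of CD45, Ter119 and CD31 positive cells or by flow sorting. Which enrichment was used for a given library, and whether each library came from its own mouse, is not given in the sources used here, so p-values measure the spread between these libraries.

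IGF1 is a secreted growth factor that is made in liver under growth hormone and locally in many tissues, bone included. It acts through IGF1R, a receptor tyrosine kinase, while IGF2R binds IGF2 and carries it to lysosomes. IGF binding proteins hold the ligands outside the cell, where they can withhold, store or deliver them, and proteases such as PAPP-A release the ligand by cutting a binding protein, IGFBP4 in the best known case. Stromal cells and osteoblasts of bone secrete several of these binding proteins.

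Total counts ranged from 69764291 to 101575071 in male-labelled libraries and from 12761107 to 20781070 in female-labelled libraries, and both depths held both genotypes. The female-labelled libraries therefore carried larger counting error for the rarest genes. The sex label was contradicted by the sex-linked genes of 3 libraries (TauT+/+ male 1, TauT-/- male 1 and TauT+/+ female 3). The libraries of 2 pairs were close to each other, TauT-/- male 1 with TauT-/- female 1 and TauT+/+ male 1 with TauT+/+ female 1. The median absolute deviation of their log2 count ratios about the median, scaled as an SD, was 0.0991 and 0.110. Counting error alone would give 0.0516 and 0.0541, and the next closest pair had 0.267. The libraries of each pair differed by more than counting error, which does not include the spread between 2 preparations of the same cells. Whether they came from separate cultures therefore cannot be told here. The male-labelled library of each pair is also among the 3 against their sex label. All were kept as separate libraries, and values from 13 libraries, with 1 library of each pair left out, are given beside the results. *Slc6a6* itself was measured at 592 to 2591 normalised counts per 1e+06 counts (CPM) in TauT+/+ libraries and at 401 to 1521 CPM in TauT-/- libraries, with a log2 fold change of -0.97 (SE 0.358, edgeR adjusted p = 0.125). The sources used here do not say which part of the gene is deleted, so reads over the whole gene do not check the genotype labels.

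Among the 10 genes, *Igfbp4* and *Igf1* differed most between the genotypes relative to their spread. The mean level of *Igfbp4* was 4017 ± 3069.7 CPM in TauT+/+ MSCs (SD, n = 7), against 849.7 ± 562 CPM in TauT-/- MSCs (SD, n = 8). That of *Igf1* was 172 ± 51.7 CPM in TauT+/+ MSCs, against 292 ± 119.9 CPM without TauT. The same numbers of libraries stand behind each mean ± SD below. In bulk RNA, fewer cells of a type and less RNA per cell cannot be told apart. Neither passed an adjusted p of 0.05 in edgeR's quasi-likelihood test with the sex label as covariate, and both passed it in DESeq2 on the same model. In the edgeR test 0 of the 10 genes were called, where 0.750% of all tested genes were called lower and 0.546% higher in TauT-/- MSCs. At an unadjusted p under 0.05, edgeR had *Igfbp4* on the lower side and *Igf1* on the higher side, where 13% of all tested genes were lower and 10.6% higher, so 1 of 10 in each direction was near the share of all genes. DESeq2 likewise called *Igfbp4* lower and *Igf1* higher at an adjusted p under 0.05, against 6.31% and 5.28% of the 18045 genes it tested. For none of the 10 genes were the genotypes without overlap, which held for 0.436% of tested genes on the lower side and 0.692% on the higher side.

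**Figure D1:**
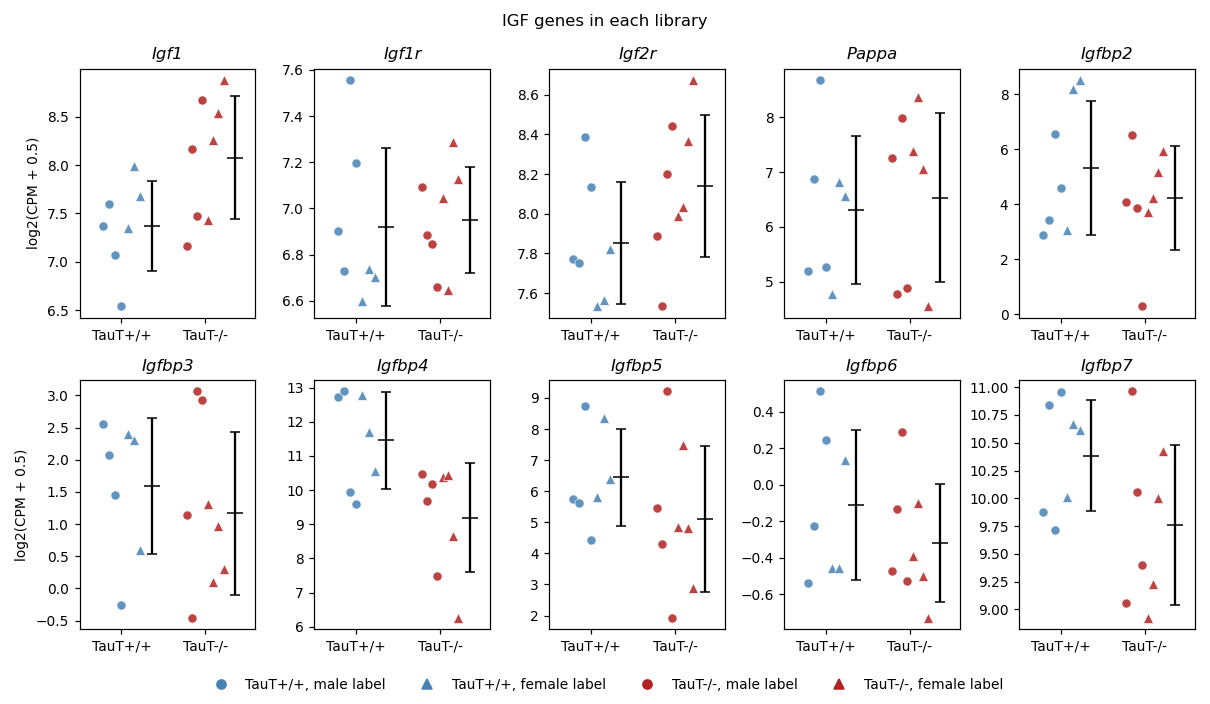
Level of each IGF gene, as log2(CPM + 0.5), in 7 TauT+/+ (blue) and 8 TauT-/- (red) libraries, with circles for male-labelled and triangles for female-labelled libraries, and with the mean and SD of each genotype in black. Each panel has its own vertical scale. All 8 TauT-/- libraries lie below the TauT+/+ median for *Igfbp4*, 7 of 8 lie above it for *Igf1*, and the genotypes overlap in every panel.

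Levels can be compared between genes only per length, so CPM was divided by the summed length of the exons in kilobases (kb). *Igfbp4* was the most abundant of the 10 genes in TauT+/+ MSCs, at 908 ± 694 CPM per kb (SD, n = 7). It was followed by *Igfbp7* at 258 ± 84.4, *Igfbp2* at 54.8 ± 72.6, *Igf2r* at 25.1 ± 5.72 and *Igfbp5* at 24.2 ± 27.0 CPM per kb. *Igf1* at 16.8 ± 5.05, *Pappa* at 10.8 ± 12.1 and *Igf1r* at 6.25 ± 1.65 CPM per kb came next, and *Igfbp3* at 0.876 ± 0.547 and *Igfbp6* at 0.333 ± 0.204 CPM per kb were the lowest. The order was the same when the longest transcript was used as the length. *Igf1r* and *Igfbp3* were the only neighbours in this order whose ranges over the TauT+/+ libraries did not overlap. *Igfbp4* was above *Igfbp7* in 6 of 7 TauT+/+ libraries and in 4 of 8 TauT-/- libraries.

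The ligand gene *Igf1* (ENSMUSG00000020053) lies on the plus strand of GRCm39 at chr10:87693642-87772904. In TauT+/+ libraries its level ran from 92.6 CPM in male 4 through a median of 165 CPM to 253 CPM in female 2. In TauT-/- libraries it ran from 143 CPM in male 1 through a median of 297 CPM to 470.2 CPM in female 4. Of the 8 TauT-/- libraries, 5 were above the highest TauT+/+ library and 7 were above the TauT+/+ median, while 1, TauT-/- male 1, was below it. The log2 fold change was 0.74 (SE 0.256, 95% interval 0.19 to 1.29), a 1.67-fold higher level, with an edgeR unadjusted p of 0.0115 and an adjusted p of 0.110. DESeq2 gave a log2 fold change of 0.75 (SE 0.273) with an adjusted p of 0.0499, which is just under the threshold. With 13 libraries DESeq2 gave 0.87 (adjusted p = 0.0362) where the female-labelled library of each close pair was kept, and 0.79 (adjusted p = 0.0457) where the male-labelled one was kept, while edgeR gave 0.84 (adjusted p = 0.113) and 0.81 (adjusted p = 0.133). The share of all genes that DESeq2 called lower and higher in these fits was 4.75% and 5.14% with the female-labelled library kept, and 4.22% and 4.20% with the male-labelled library kept. Leaving out each library in turn kept the log2 fold change between 0.60 and 0.87, with edgeR adjusted p from 0.0655 to 0.200.

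The receptor genes differed less between the genotypes. *Igf1r* (ENSMUSG00000005533, chr7:67601518-67883416, plus strand), the signalling receptor of IGF1, averaged 124 ± 32.7 CPM in controls and 124 ± 19.7 CPM without TauT, which gave a log2 fold change of 0.03 (95% interval -0.30 to 0.36, edgeR adjusted p = 0.932). All 15 libraries lay within a 1.95-fold range, from 96.5 CPM in TauT+/+ female 1 to 188 CPM in TauT+/+ male 3, the narrowest range of the 10 genes. *Igf2r* (ENSMUSG00000023830, chr17:12901293-12988614, minus strand), which clears IGF2, averaged 235 ± 53.6 CPM in controls and 289 ± 70.7 CPM in TauT-/- MSCs. The log2 fold change of *Igf2r* was 0.31 (95% interval -0.08 to 0.69, edgeR adjusted p = 0.319), and 2 of 8 TauT-/- libraries were above the highest TauT+/+ library.

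Of the 6 binding protein genes, all 6 had a log2 fold change below 0 in the edgeR fit, and the 95% interval excluded 0 for *Igfbp4* alone. *Igfbp4* (ENSMUSG00000017493, chr11:98932064-98945218, plus strand) encodes a secreted binding protein that mainly restrains IGF action and is the substrate of PAPP-A. The window just before its annotated start is shown because *Igfbp4* had the largest fold change of the 10 genes. It is the part of the RefSeq promoter sequence that lies before this start, at chr11:98931820-98932063, with its TATAAA letters in capitals. The full RefSeq sequence matched the plus strand of chromosome 11 of GRCm39 once, and other chromosomes were not searched.
Igfbp4 promoter window: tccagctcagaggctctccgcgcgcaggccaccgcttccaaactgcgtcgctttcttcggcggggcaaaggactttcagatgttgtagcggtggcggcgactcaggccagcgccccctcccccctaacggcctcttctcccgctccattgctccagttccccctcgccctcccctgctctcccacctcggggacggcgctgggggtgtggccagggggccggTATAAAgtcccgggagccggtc
The window of 244 bases was 68.4% G and C, and 229 of its bases lay in an exon of the non-coding gene *Gm72292*. The letters TATAAA began 22 bases before the annotated start of *Igfbp4* and occurred on either strand in 12.2% of 32851 RefSeq promoter windows of the same length. The letters CCAAT occurred in 33.4% of these windows and were not in this one. A match of letters describes the window and is not evidence of a bound site.

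In TauT+/+ libraries *Igfbp4* ran from 768 CPM in male 4 through a median of 3345 CPM to 7629 CPM in male 2. In TauT-/- libraries it ran from 76.5 CPM in female 4 through a median of 986 CPM to 1432 CPM in male 1. The TauT+/+ libraries fell into a wide spread, with 5 above every TauT-/- library and 2, male 3 at 989 CPM and male 4, within the TauT-/- range. All 8 TauT-/- libraries were below the TauT+/+ median and 3 were below the lowest TauT+/+ library. The log2 fold change was -2.24 (SE 0.675, 95% interval -3.68 to -0.79), a 4.71-fold lower level, with an edgeR unadjusted p of 0.00493 and an adjusted p of 0.0831. DESeq2 gave -2.23 (SE 0.628) with an adjusted p of 0.00968, and voom with sample quality weights gave -2.08 (SE 0.577) with an adjusted p of 0.0444. The voom fit called 708 of all tested genes lower and 611 higher. With 13 libraries DESeq2 gave -2.22 (adjusted p = 0.0243) and -2.09 (adjusted p = 0.0354), and edgeR gave -2.23 (adjusted p = 0.121) and -2.08 (adjusted p = 0.156), with the female-labelled and the male-labelled library of each pair kept. Without TauT+/+ male 3, edgeR called *Igfbp4* lower, at -2.40 with an adjusted p of 0.0455, and without any other single library it did not. Calls over all tested genes also rose without TauT+/+ male 3, to 779 lower and 476 higher, against 129 and 94 with 15 libraries.

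*Igfbp7* (ENSMUSG00000036256, chr5:77493130-77555931, minus strand) encodes a matrix-associated member of the family with low affinity for IGFs. It averaged 1404 ± 460.0 CPM in controls and 969 ± 519 CPM without TauT, which gave a log2 fold change of -0.53 (95% interval -1.22 to 0.15, edgeR adjusted p = 0.330). Of the TauT-/- libraries, 7 of 8 were below the TauT+/+ median and 4 below the lowest TauT+/+ library, while TauT-/- male 2, at 1997 CPM, was the highest of all. *Igfbp2* (ENSMUSG00000039323, chr1:72863606-72891634, plus strand), a secreted binding protein, was the most uneven gene, with a 512-fold range from 0.717 CPM in TauT-/- male 4 to 367 CPM in TauT+/+ female 3. It averaged 114 ± 151 CPM in controls and 31.2 ± 30.6 CPM in TauT-/- MSCs, with medians of 23.7 and 17.3 CPM. Its log2 fold change of -1.39 had a 95% interval of -3.52 to 0.73 (edgeR adjusted p = 0.412), and 2 female-labelled TauT+/+ libraries, at 289 and 367 CPM, set the high mean.

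*Igfbp5* (ENSMUSG00000026185, chr1:72897091-72914043, minus strand) lies beside *Igfbp2* on chromosome 1 and encodes a binding protein that attaches to bone matrix. It averaged 145 ± 162 CPM in controls and 113 ± 203 CPM in TauT-/- MSCs, and its highest values were 426 CPM in TauT+/+ male 3 and 595 CPM in TauT-/- male 3. Its log2 fold change was -0.49 (95% interval -2.68 to 1.69, edgeR adjusted p = 0.803). It ranged from -2.00 without TauT-/- male 3 to 0.17 without TauT+/+ male 3. Without TauT+/+ female 2 it was 0.11, so leaving out either of these TauT+/+ libraries turned its sign. *Igfbp3* (ENSMUSG00000020427, chr11:7156086-7164179, minus strand), the main carrier of IGFs in serum, was low in these cells, at 3.12 ± 1.95 and 2.7 ± 3.01 CPM in TauT+/+ and TauT-/- MSCs (log2 fold change -0.40, 95% interval -1.96 to 1.16, edgeR adjusted p = 0.774). *Igfbp6* (ENSMUSG00000023046, chr15:102052697-102057953, plus strand), a binding protein with preference for IGF2, was detected at 2 to 87 counts in a library. It averaged 0.459 ± 0.282 and 0.320 ± 0.197 CPM, and its log2 fold change was -0.49 (95% interval -1.40 to 0.43, edgeR adjusted p = 0.516).

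*Pappa* (ENSMUSG00000028370, chr4:65042411-65275746, plus strand) encodes PAPP-A, the metalloprotease that cuts IGFBP4. It averaged 119 ± 134 CPM in controls and 139 ± 112 CPM in TauT-/- MSCs, with a log2 fold change of 0.27 (95% interval -1.29 to 1.83, edgeR adjusted p = 0.857). Libraries of both genotypes spanned nearly the same range, from 26.8 to 409.8 CPM in controls and from 22.9 to 329 CPM without TauT. Without TauT+/+ male 3, the highest library, the log2 fold change was 0.96, and without TauT-/- male 3 it was -0.03.

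**Figure D2:**
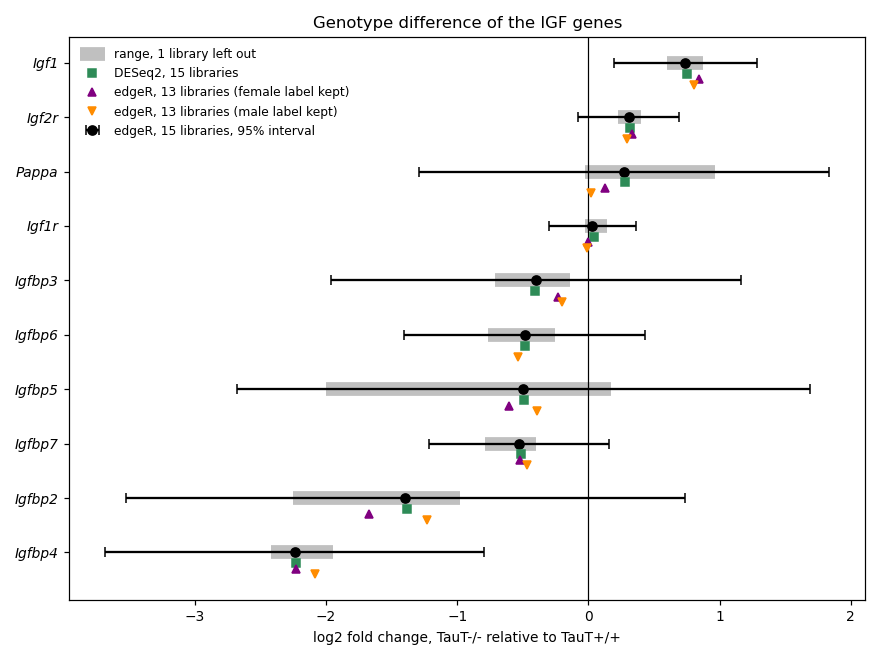
Log2 fold change of each IGF gene in TauT-/- relative to TauT+/+ MSCs. Black points and bars are the edgeR estimate from 15 libraries with its 95% interval, grey bars the range when each library is left out in turn, and coloured points DESeq2 and the edgeR fits with 13 libraries. The interval excludes 0 for *Igf1*, from 0.19 to 1.29, and *Igfbp4*, from -3.68 to -0.79, and the grey bars of *Igfbp5*, *Pappa* and *Igf1r* cross 0.

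Antisense overlap could touch some of these counts. On GRCm39, *Igf1r* shared 1247 exon bases with the opposite-strand gene *Pgpep1l*, and *Igfbp7* shared 747 with *Polr2b*. *Pgpep1l* was at most 1.79 CPM in any library, against at least 96.5 CPM for *Igf1r*, and *Polr2b* was at most 71.3 CPM, against at least 486 CPM for *Igfbp7*. *Igfbp3* shared 22 and 120 exon bases with the non-coding genes *Gm36565* and *Gm73927* and *Pappa* shared 98 with *Gm68661*, and no gene on the same strand shared exon bases with any of the 10.

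The make-up of the binding protein transcripts was read within each library as the share of each gene in the summed CPM per kb of the 6 genes. *Igfbp4* and *Igfbp7* took the largest shares in every library except TauT-/- female 4, where *Igfbp2* (9.67%) came between *Igfbp7* (84.1%) and *Igfbp4* (5.76%). *Igfbp4* was first in 6 of 7 TauT+/+ and 4 of 8 TauT-/- libraries, and *Igfbp7* was first in the rest. The median share of *Igfbp4* was 60.5% in TauT+/+ (range 31.4% to 89.1%) and 38.6% in TauT-/- libraries (range 5.76% to 74.9%). The median share of *Igfbp7* was 23.9% in TauT+/+ (range 10.1% to 65.8%) and 47.8% in TauT-/- libraries (range 22.2% to 84.1%). The shares overlapped widely between the genotypes. The largest shares of *Igfbp2* were 11.1% and 21.5%, in TauT+/+ female 2 and female 3, and the largest shares of *Igfbp5* were 14.3% and 17.6%, in TauT+/+ male 3 and TauT-/- male 3. Because these are shares of the same total, a lower share of 1 gene raises the share of the others.

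**Figure D3:**
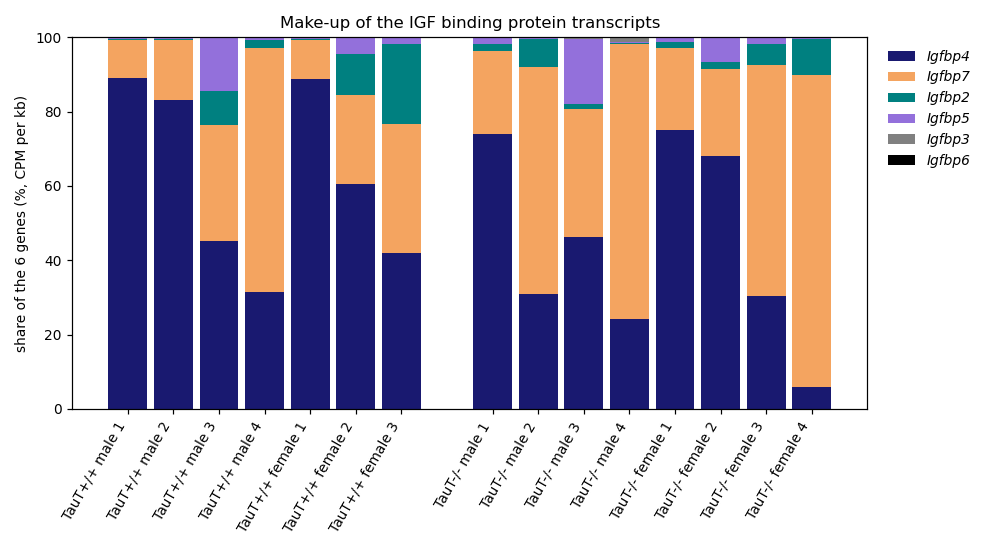
Share of each of 6 IGF binding protein genes in their summed CPM per kb of exon, in percent, for 7 TauT+/+ libraries (left) and 8 TauT-/- libraries (right). *Igfbp4* (dark blue) takes 31.4% to 89.1% of TauT+/+ and 5.76% to 74.9% of TauT-/- libraries, and *Igfbp7* (orange) takes 10.1% to 65.8% and 22.2% to 84.1%.

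Within the sex labels, the direction of *Igf1* and *Igfbp4* was the same. Each label held 1 library of both close pairs, so the labels may not be independent and the shared direction is not a repeat of the result. With 13 libraries, edgeR called 0 of all tested genes within either label. Among male-labelled libraries, *Igf1* was at 165, 193, 134 and 92.6 CPM in controls and at 143, 287, 178 and 407 CPM in TauT-/- MSCs. The log2 fold change was 0.80 (SE 0.360, edgeR unadjusted p = 0.0445, adjusted p = 0.573), and the genotypes overlapped. Among female-labelled libraries, it was at 163, 253 and 204 CPM in controls and at 173, 306, 369.96 and 470.2 CPM in TauT-/- MSCs. Here the log2 fold change was 0.67 (SE 0.393, edgeR unadjusted p = 0.109, adjusted p = 0.432), and 1 TauT-/- library lay within the TauT+/+ range.

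*Igfbp4* was at 6772, 7629, 989 and 768 CPM in male-labelled TauT+/+ libraries and at 1432, 823, 1149.5 and 179 CPM in male-labelled TauT-/- libraries. The TauT+/+ libraries split into a high and a low pair, and the low pair overlapped the TauT-/- libraries (log2 fold change -2.17, SE 0.968, edgeR unadjusted p = 0.0422, adjusted p = 0.572). It was at 7097, 3345 and 1519.9 CPM in female-labelled TauT+/+ libraries and at 1332, 1400.5, 405 and 76.5 CPM in female-labelled TauT-/- libraries. There the genotypes did not overlap (log2 fold change -2.31, SE 1.02, edgeR unadjusted p = 0.0397, adjusted p = 0.323). The difference between the labels was 0.12 for *Igf1* and 0.14 for *Igfbp4* on the log2 scale, each within its standard error of 0.526 and 1.36.

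*Igf2r* and *Igf1r* had different values under the labels. *Igf2r* had a log2 fold change of 0.02 among male-labelled and 0.65 among female-labelled libraries (SE 0.245, edgeR unadjusted p = 0.0200, adjusted p = 0.279). Its female-labelled levels did not overlap, at 185, 189 and 226 CPM in controls and 253, 261, 329 and 408 CPM in TauT-/- MSCs. *Igf1r* had -0.25 and 0.37. The difference between the labels was -0.62 for *Igf1r* (SE 0.272, edgeR unadjusted p = 0.0395, adjusted p = 1.00) and -0.63 for *Igf2r* (SE 0.330, edgeR unadjusted p = 0.0802, adjusted p = 1.00), so neither difference passed the test.

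By edgeR and by DESeq2, 0 IGF genes were called within a sex label or for the difference between labels. Over all tested genes edgeR also called 0 in each of these 3 contrasts, and DESeq2 called 76 among male-labelled libraries, 410 among female-labelled libraries and 2 for the difference, so these fits could call few genes of any kind. At an unadjusted p under 0.05, the male-labelled fit had 1 of 10 lower and 1 of 10 higher, where all tested genes had 4.52% and 4.10%, and the female-labelled fit had 1 of 10 lower and 1 of 10 higher, where all tested genes had 7.75% and 6.89%. The difference between labels had 1 of 10, where all tested genes had 1.41%. Genotypes without overlap among female-labelled libraries occurred for 8.20% of tested genes on the lower side, *Igfbp4* among them, and for 6.29% on the higher side, *Igf2r* among them. The sex label coincides with sequencing depth, so the label and the depth cannot be told apart here. The sex-linked genes of 3 libraries went against the label, so a difference between labels is not simply one between sexes. Sex as read from the sex-linked genes was not tested.

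**Figure D4:**
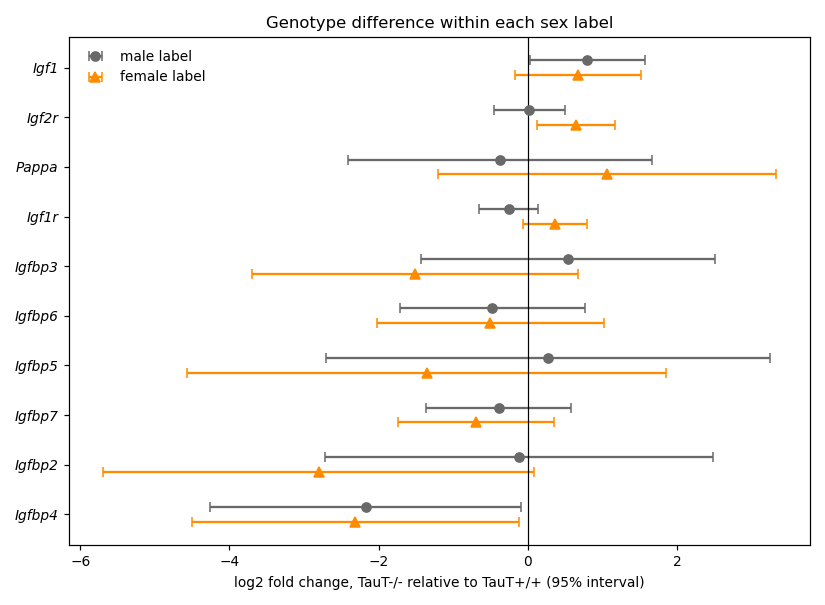
Log2 fold change of each IGF gene in TauT-/- relative to TauT+/+ MSCs, with its 95% interval, from male-labelled (grey circles) and female-labelled (orange triangles) libraries. *Igfbp4* lies at -2.17 and -2.31 and *Igf1* at 0.80 and 0.67, while the intervals of the 2 labels overlap for every gene.

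To place the 10 genes in their pathway, 71 further genes were read from the same fit, of which 63 passed the filter on low counts. Of these 63, 33 had a log2 fold change above 0 and 30 below, with a median of 0.04, where the median of all tested genes was -0.02. edgeR called 3 lower and 0 higher in TauT-/- MSCs. This compares with the 0.750% lower and 0.546% higher over all tested genes. Without adjustment, 15 were lower and 7 higher at p under 0.05, beside 13% and 10.6% of all tested genes. DESeq2 called 10 lower and 3 higher, beside 6.31% and 5.28% of all genes.

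Among the other ligands, carriers and receptors, *Ins1*, *Ins2* and *Igfbp1* had 0 counts in all libraries, and 0 of 4 tested genes were called by edgeR, against 1 by DESeq2 and 1 at an unadjusted p under 0.05. *Igf2*, the other IGF ligand, was low, at 3.40 ± 2.75 CPM in controls and 5.35 ± 8.25 CPM in TauT-/- MSCs (log2 fold change 0.66, edgeR adjusted p = 0.735). *Ghr*, the growth hormone receptor, averaged 201 ± 189.8 CPM in controls and 66.1 ± 11.1 CPM in TauT-/- MSCs (log2 fold change -1.50, SE 0.383, edgeR adjusted p = 0.0613), and DESeq2 called it lower (adjusted p = 0.00444). *Igfals*, the subunit that stabilises IGF complexes in serum, was below 2 CPM throughout (log2 fold change -1.05, edgeR adjusted p = 0.269).

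Among the binding protein proteases and their inhibitors, 0 of 9 tested genes were called by edgeR, against 2 by DESeq2 (*Pappa2* lower and *Stc2* higher) and 5 at an unadjusted p under 0.05. *Pappa2*, a protease related to PAPP-A, averaged 21.9 ± 21.9 CPM in controls and 2.11 ± 2.64 CPM in TauT-/- MSCs (log2 fold change -3.29, SE 0.916, edgeR adjusted p = 0.0722), and DESeq2 called it lower (adjusted p = 0.00243). *Adam12*, a membrane metalloprotease, averaged 107 ± 62.9 and 41.5 ± 25.4 CPM (log2 fold change -1.34, edgeR adjusted p = 0.124).

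Among proteins that carry an IGFBP domain, 1 of 8 tested genes was called by edgeR. DESeq2 called 3 lower and 0 higher, and 4 were lower and 0 higher at an unadjusted p under 0.05. *Esm1*, which encodes the secreted proteoglycan endocan and is also an endothelial marker, fell from 94.0 ± 104 CPM in TauT+/+ to 3.08 ± 2.69 CPM in TauT-/- MSCs (log2 fold change -5.03, SE 0.968, edgeR adjusted p = 0.0337), and 5 of 8 TauT-/- libraries were below the lowest TauT+/+ library. Among the receptor adaptors and intracellular genes, 2 of 39 were called by edgeR, both lower. DESeq2 called 5 lower and 2 higher, and 7 were lower and 3 higher at an unadjusted p under 0.05. *Pik3r1*, a regulatory subunit of PI3-kinase, fell from 326 ± 130.0 to 154 ± 21.4 CPM (log2 fold change -1.08, SE 0.215, edgeR adjusted p = 0.0352). *Grb14*, an adaptor that inhibits insulin receptor signalling, fell from 77.2 ± 28.5 to 35.0 ± 9.88 CPM (log2 fold change -1.16, SE 0.244, edgeR adjusted p = 0.0397). Of the TauT-/- libraries, 7 of 8 were below the lowest TauT+/+ library for each of these genes.

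The 3 genes did not pass the edgeR threshold with 13 libraries, where adjusted p was 0.0771 to 0.0941 for *Esm1*, 0.0771 to 0.106 for *Pik3r1* and 0.0820 to 0.111 for *Grb14*. The log2 fold changes there were -4.79 and -4.55 for *Esm1*, -1.06 and -1.05 for *Pik3r1* and -1.14 and -1.07 for *Grb14*, with the female-labelled and the male-labelled library of each pair kept. Of all tested genes, these fits called 0 lower and 2 and 7 higher. DESeq2 called each of the 3 with 15 and with 13 libraries. When each library was left out in turn, edgeR called *Esm1* in 7 of 15 fits and *Pik3r1* and *Grb14* in 4 of 15 each, and no pathway gene was called without TauT+/+ male 1, male 2, female 1 or female 2, or without TauT-/- male 1, male 4, female 3 or female 4. Among the IGF2 mRNA-binding proteins, 0 of 3 were called by edgeR, and 2 were higher at an unadjusted p under 0.05. DESeq2 gave an adjusted p for *Igf2bp2* alone (0.105) and did not call it. *Igf2bp3* averaged 0.309 ± 0.270 CPM in controls and 6.83 ± 12.3 CPM in TauT-/- MSCs (log2 fold change 4.55, SE 1.53, edgeR adjusted p = 0.105), with a range of 0.0804 to 27.4 CPM over TauT-/- libraries. *Igf2bp2* averaged 20.6 ± 14.8 and 48.4 ± 27.7 CPM (log2 fold change 1.24, edgeR adjusted p = 0.204).

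The genes whose levels followed *Igf1* and *Igfbp4* most closely were found by Pearson's r of log2(CPM + 0.5) over 13 libraries, with the male-labelled library of each close pair left out, among 13199 tested genes with a mean of at least 1 CPM. For *Igf1* they were *Hectd3* (r = 0.925), *Qdpr* (0.924), *Arhgef6* (0.922), *Stxbp2* (0.903) and *Tmem135* (0.898). For *Igfbp4* they were *Islr* (r = 0.967), *Slc43a3* (0.963), *Shroom3* (0.962), *Tnfsf11* (0.959) and *Ptpdc1* (0.957). Between members, r was -0.55 for *Igf1* with *Igfbp4*, and the strongest values of either sign were -0.82 for *Igf2r* with *Igfbp4* and 0.77 for *Igfbp5* with *Pappa*. The libraries share their genotype groups, depth and cell make-up, and these values describe the 13 libraries.

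Several lists of cell type markers leaned higher or lower in TauT-/- MSCs, but edgeR called few single markers and the summed levels overlapped. Of 18 macrophage markers, 17 had a log2 fold change above 0, with a median of 0.88, and edgeR called 2 higher, *Cd68* and *Ctss*, where 0.546% of all tested genes were called higher. DESeq2 called 7 higher and 13 were higher at an unadjusted p under 0.05. Their summed level was 1391 to 9715 CPM (median 8093) in TauT+/+ and 6639.9 to 22283 CPM (median 15581) in TauT-/- libraries, and none of the 18 was at 0 in all libraries. *Ptprc*, which encodes the CD45 used for depletion, averaged 123 ± 52.5 CPM in controls and 234 ± 87.6 CPM in TauT-/- MSCs (edgeR adjusted p = 0.129). Of 14 stromal markers, 11 had a log2 fold change below 0, with a median of -0.57, and 0 were called by edgeR. DESeq2 called 2 of the 14 lower, and 4 were lower and 1 higher at an unadjusted p under 0.05. Their summed level was 27346 to 46628 CPM in TauT+/+ and 4899.8 to 39017 CPM in TauT-/- libraries, and *Lepr*, a marker of marrow MSCs, averaged 0.993 CPM in TauT+/+ and 0.946 CPM in TauT-/- libraries. All 6 adipocyte markers had a log2 fold change below 0, with a median of -1.28. edgeR called 0 of them, while DESeq2 called 3 lower and 3 had an unadjusted p under 0.05. Osteoblast markers summed to 1583 to 7629 CPM in TauT+/+ and 3222 to 16690.3 CPM in TauT-/- libraries, but most of this sum was *Spp1*, which encodes osteopontin and is not confined to osteoblasts, at 4078 ± 2457 CPM in controls and 10305 ± 4368 CPM in TauT-/- libraries (log2 fold change 1.35, edgeR adjusted p = 0.0953). The other 4 of the 5 tested osteoblast markers had a log2 fold change below 0, and the median of the 5 was -0.41. edgeR called 0, DESeq2 called *Spp1* higher, and *Spp1* and *Runx2* had an unadjusted p under 0.05. Of the 5 tested endothelial markers, 4 had a log2 fold change above 0, with a median of 0.61, and the 8 listed summed to 6.88 to 19.0 CPM in TauT+/+ and 10.7 to 109.8 CPM in TauT-/- libraries. edgeR called 0 of them, 2 were higher at an unadjusted p under 0.05, and DESeq2 called *Kdr* higher (log2 fold change 2.16, adjusted p = 0.000833). Neutrophil markers summed to at most 53.3 CPM and erythroid markers to at most 0.576 CPM.

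*Igf1* and *Igfbp4* were at opposite extremes in the libraries with the lowest summed stromal markers. Most of the stromal sum was *Col1a1*, *Cxcl12* and *Col1a2*, at means of 12883, 12120 and 7173 CPM in TauT+/+ libraries. *Lyz2*, at a mean of 3900 CPM there, was the largest part of the macrophage sum. The order of libraries by these sums therefore rests mainly on these genes and need not follow cell content. TauT-/- female 4 had the lowest summed stromal markers (4899.8 CPM), the highest summed macrophage markers (22283 CPM), the highest *Igf1* (470.2 CPM) and the lowest *Igfbp4* (76.5 CPM). TauT-/- male 4 had the next lowest stromal sum (11567 CPM), the next highest *Igf1* (407 CPM) and the next lowest *Igfbp4* (179 CPM). Its macrophage sum was 15520 CPM. *Igfbp4* was highest in TauT+/+ male 2, at 7629 CPM, the library with the lowest macrophage sum (1391 CPM). Other libraries went against this order. TauT-/- female 2 had the next highest macrophage sum (19742 CPM), with *Igfbp4* at 1400.5 CPM, near the highest TauT-/- level (1432 CPM). TauT-/- male 3 had a stromal sum of 39017 CPM with *Igfbp4* at 1149.5 CPM. TauT+/+ male 4 had a macrophage sum of 5316 CPM with the lowest TauT+/+ *Igfbp4* (768 CPM). With the mean macrophage marker level as a covariate, the log2 fold change was 0.59 for *Igf1* (SE 0.342, edgeR adjusted p = 0.554) and -1.86 for *Igfbp4* (SE 0.748, edgeR adjusted p = 0.402), and 0 of all tested genes were called in that fit, with 1846 at an unadjusted p under 0.05. The part of the stromal markers in these differences was not tested.

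**Figure D5:**
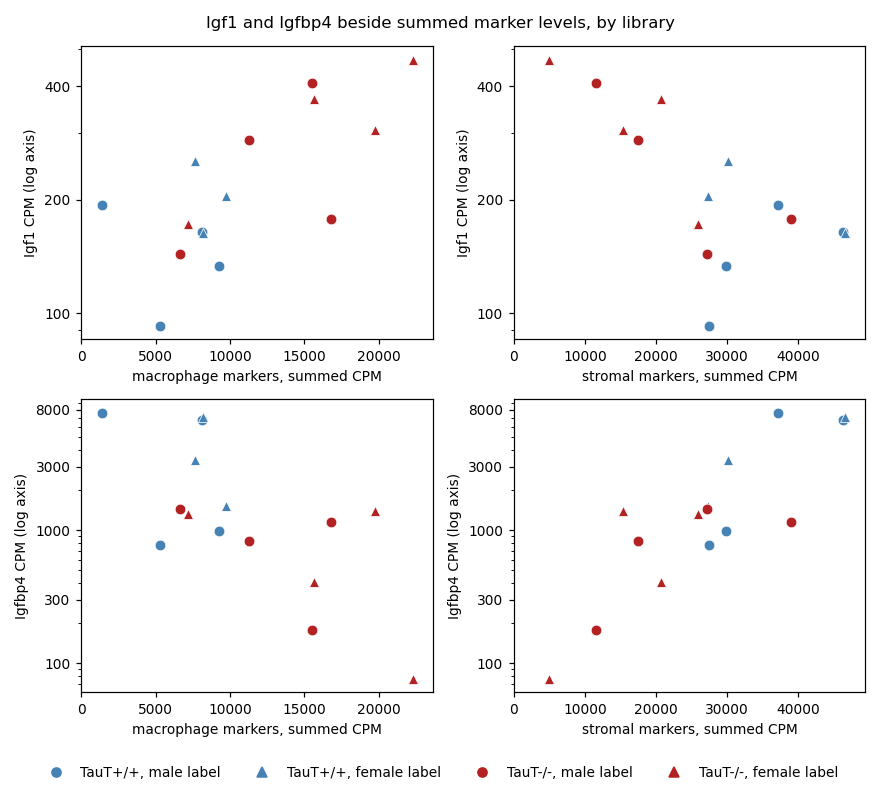
*Igf1* (top) and *Igfbp4* (bottom) in CPM on a log axis against the summed CPM of 18 macrophage markers (left) and 14 stromal markers (right), for 7 TauT+/+ (blue) and 8 TauT-/- (red) libraries, with circles for male and triangles for female labels. TauT-/- female 4 is at one corner of every panel, with 470.2 CPM of *Igf1* and 76.5 CPM of *Igfbp4*.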

How the data were processed

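Counts were made by the authors from paired reads of 150 bases of SMART-Seq mRNA LP libraries started from 1 ng of total RNA. According to the paper's methods and the submitters' processing notes, reads were filtered with fastp 0.23.1, mapped to GRCm39 (GENCODE M31) with STAR 2.7.9a and counted on genes with featureCounts of Subread 2.0.1 at strand setting 2. The authors deposited counts in whole numbers for each gene, without normalization, and 0 columns were left without a sample. Whether the kit marks strand is not given in the sources used here.

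Counts were tested over all 17204 genes that passed filterByExpr, with TMM normalization and the quasi-likelihood test of edgeR 4.0.16 in R 4.3.3, sex label and genotype as terms, and Benjamini-Hochberg adjustment at 0.05. The biological coefficient of variation was 0.482. Contrasts within a sex label used 1 term per group. Alternatives were DESeq2 1.42.0, voom (limma 3.58.1), other normalizations and filters, no sex term, a replicate block, a macrophage covariate and fewer libraries. CPM used the TMM library sizes, and a log2 scale added 0.5 CPM. On simulated counts for this comparison with 200 of 17204 genes changed 4-fold, 159 of the 165 genes that edgeR called were changed ones (79.5% of the 200), as were 173 of the 208 that DESeq2 called. The simulation drew independent libraries, without close pairs or shifts in cell make-up, so these shares need not hold for the measured libraries. Positions come from GENCODE M39 on GRCm39 and the promoter from RefSeq. Descriptions were computed in Python 3.11.15.

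The 10 genes, the pathway and marker lists and the tests were chosen with earlier results of these data known. Named pathway genes are those with an edgeR adjusted p under 0.05 or, in lists without one, the 2 with the smallest p. *Igf2*, *Ptprc*, *Lepr*, *Cd68*, *Ctss*, *Stc2*, *Spp1*, *Runx2*, *Kdr*, *Col1a1*, *Cxcl12*, *Col1a2*, *Lyz2* and the pathway genes at 0 are named outside this rule, after their values were seen.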

Additional observations from a re-analysis of the deposited data

How the results depend on the processing

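Of the 10 genes, 0 were called by edgeR with upper-quartile normalization, without a sex term, with either low-count filter, the replicate block, the macrophage covariate, 13 libraries or 12 libraries (those against their sex label left out). Over all tested genes, edgeR called 0 with the covariate or 12 libraries, and 2 and 7 with 13 libraries. Of the 10, DESeq2 called 2 with 15 libraries and 2 in each 13-library fit, which were chosen after seeing the data, voom called 1 (*Igfbp4*), and leaving out 1 library gave 0 to 1. Over all tested genes, voom called 708 lower and 611 higher. The edgeR fit without TauT+/+ male 3, the one with 1 of the 10, called 779 lower and 476 higher, against 129 and 94 in the main fit. Of the other pathway genes, against 3 by edgeR, DESeq2 called 13, voom 12, DESeq2 with 13 libraries 10 and 10, the fit without a sex term 5, and the covariate, both 13-library and the 12-library edgeR fits 0. Leaving out 1 library gave 0 to 7, with 7 without TauT+/+ male 3. Calls over all tested genes were also more than in the main fit with voom and without TauT+/+ male 3, as given above. Without a sex term, 258 of all tested genes were called lower and 188 higher. A replicate block takes TauT-/- female 4, which has no TauT+/+ library of the same label and number, out of the genotype estimate. With this block, 7 pathway genes and 0 of the 10 were called, where 177 of all tested genes were lower and 82 higher. The 95% interval then excluded 0 for *Igfbp4* (-1.88, edgeR adjusted p = 0.0513), *Igfbp5* (-1.02, interval -1.78 to -0.27, adjusted p = 0.105) and *Igfbp7* (-0.73, interval -1.31 to -0.15, adjusted p = 0.121). Deviations of same-numbered libraries correlated at 0.19 to 0.61 in the 4 male-labelled pairs and at 0.25, 0.06 and -0.03 in the 3 female-labelled pairs, and 11 of 14 libraries were closest to their own number. This hints at pairing by number, which no label states and which the female-labelled pairs do not all show.

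*Igf1* and *Igfbp4* kept their direction in all these fits, with adjusted p up to 0.554 and 0.402. *Igf1r* turned to -0.013 with the macrophage covariate, -0.0048 and -0.0096 with 13 libraries, -0.013 with 12, -0.029 with DESeq2 and the male-labelled libraries kept, and -0.027 to 0.14 without 1 library. *Pappa* turned to -0.00099 in that DESeq2 fit and ran from -0.027 to 0.96 without 1 library, and *Igfbp5* from -2.00 to 0.17. Among male-labelled libraries *Igf2r* turned to -0.028 with the female-labelled library of each pair kept and ran from -0.13 to 0.15 without 1 library. DESeq2 left *Igfbp5* without an adjusted p, and *Igfbp6* was not tested with at least 10 counts required in every library or with 13 libraries, female-labelled kept. Depth limits *Igfbp6* and *Igfbp3*, which had as few as 2 and 12 counts in a library.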
